A study of Mus musculus with 6 samples.

Results

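The 8 genes described here encode the TCF/LEF transcription factors (Tcf7, Lef1, Tcf7l1 and Tcf7l2) and the Groucho corepressors of the TLE family (Tle1, Tle2, Tle3 and Tle4). Chromatin accessibility at these genes was compared between OB Fam20c f/f cells, an immortalized mouse osteoblast line with floxed Fam20c, and OB Fam20c KO cells, which were made from that line with a lentivirus carrying Cre recombinase. Both were grown in αMEM with fetal bovine serum and received no other treatment. ATAC-seq marks open chromatin by the insertion of sequencing adapters with the transposase Tn5, which acted for 30 min at 37 °C on 50000 nuclei per library. Each group had 3 libraries (f/f replicates 1 to 3 and KO replicates 1 to 3), which the labels do not tie to separate cultures, so p-values measure the spread between libraries, which may be technical. The parental line and its KO derivative are each a single line, so the loss of Fam20c and anything else that differs between the lines cannot be told apart.

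The members were taken by name. Peaks from different libraries that had at least 1 bp in common were joined to a region, and every region that overlapped the RefSeq span of a gene (GRCm38.p6, the coordinates of mm10) extended by 20 kb was assigned to it. This gave 71 regions at the 8 genes, out of 89410 regions in all. The number of reads behind each peak was not analysed here. Within each peak list, regions were therefore ranked by the −log10 q at the peak summit and by its fold over the local background, and the rank is given as a standing from 0 to 100, where 100 is the highest. The whole-list standing is the rank of a region's strongest peak among all peaks of a library. The shared standing counts the 29849 regions found in every library and is the scale on which the groups were tested. The list of KO replicate 3 held 32958 peaks against 62781 to 74797 in the other libraries, so values are given with and without it where it decides a result. A region without a peak in a list did not pass the peak caller's threshold in that library, which is not the same as closed chromatin, and openness in fewer cells cannot be told apart from less openness per cell.

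TCF/LEF proteins bind DNA through an HMG box and are the nuclear end of canonical Wnt signalling. In the absence of β-catenin they hold Groucho/TLE proteins, which bring histone deacetylases and keep target genes off, and stabilised β-catenin displaces the corepressor and turns the same sites on. In bone, this pathway directs mesenchymal progenitors toward the osteoblast fate and raises bone formation. The aliases of Tcf7l2 include Tcf4, a name that properly belongs to an unrelated bHLH gene, which is treated apart here.

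The starts of these genes were the most regular part of the data. A region with a peak covered an annotated start of all 8 genes, and at 7 of them the peak was present in every library. The start of Tle2 was the exception, with a small peak in f/f replicates 2 and 3. Of the other regions, 10 of 41 inside the gene spans, 7 of 12 upstream and 6 of 10 downstream had a peak in all 6 libraries. Together 30 of the 71 regions (42.3%) were shared by all libraries, against 33.4% of the regions of the whole series, and 14 (19.7%) were found in every library but KO replicate 3, against 19.2%.

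RefSeq lists 14 starts for the 8 genes, some of them close together, and the window from 250 bases before to 50 bases after each start was read on the strand of the gene. The letters CTTTGA (or TCAAAG on the other strand), which TCF/LEF factors prefer, were found in 1 of these 14 windows, and in 16.0% of 32851 RefSeq windows of the same length. That window lies at an internal start of Lef1 and had no peak in any library. TGANTCA (AP-1), ACCACA or TGTGGT (RUNX) and CATCTG or CAGATG (an E box) were searched on both strands, with no match overlapping another, and were found in 0, 0 and 1 of the 14 windows and in 7.81%, 16.8% and 17.2% of all windows. A match is a run of letters and not a bound site. Windows that overlapped a region shared by all libraries had a GC content of 51.7% to 76.3%, with a median of 52.7% over all RefSeq windows. The lowest value is that of the Lef1 start at chr3:131112791, which lies just past the end of the region. The windows of the internal starts of Lef1 and Tcf7l2 without a peak had 43.7% and 42.0%. The 250 bases before 3 of the starts are printed from RefSeq (GRCm38.p6), 5′ to 3′ on the strand of the gene, with matches to the searched letters in capitals. The internal Lef1 start is shown because it alone holds the TCF/LEF letters (chr3:131156044-131156293, + strand), with the first base of the matches 180 and 120 bases before the start. The Tcf7l2 start is shown because its region rose in standing in the KO libraries (chr19:55741560-55741809, + strand), and the Tle4 start because its region had the highest standing of all 71 (chr19:14598184-14598433, − strand).
Lef1 internal start: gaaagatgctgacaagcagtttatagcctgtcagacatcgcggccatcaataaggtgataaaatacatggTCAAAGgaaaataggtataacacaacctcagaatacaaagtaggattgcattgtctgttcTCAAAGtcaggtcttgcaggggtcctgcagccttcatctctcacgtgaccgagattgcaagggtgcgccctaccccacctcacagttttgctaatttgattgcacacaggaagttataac
Tcf7l2 start: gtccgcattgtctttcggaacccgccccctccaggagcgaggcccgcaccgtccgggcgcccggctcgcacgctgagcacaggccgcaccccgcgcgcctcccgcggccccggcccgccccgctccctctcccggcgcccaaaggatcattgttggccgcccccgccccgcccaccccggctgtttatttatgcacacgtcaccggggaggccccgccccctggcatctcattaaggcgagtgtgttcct
Tle4 start: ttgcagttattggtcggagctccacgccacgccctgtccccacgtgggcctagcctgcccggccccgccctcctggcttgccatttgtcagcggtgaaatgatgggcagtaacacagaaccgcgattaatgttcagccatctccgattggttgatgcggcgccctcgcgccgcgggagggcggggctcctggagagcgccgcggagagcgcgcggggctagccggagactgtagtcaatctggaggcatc

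Tcf7 encodes TCF1, which is made in long forms that bind β-catenin and in short forms that do not. The gene (chr11:52246527-52283383, − strand) had 6 regions, and each had a peak in every library, KO replicate 3 included. The region that covered both of its listed starts (chr11:52282208-52283838) gave the largest difference among the 8 genes. Its peak had a fold over background of 6.96, 5.39 and 7.13 in f/f replicates 1 to 3 and of 11.3, 12.5 and 7.56 in KO replicates 1 to 3. The −log10 q of the same peak was 42.8, 41.6 and 95.5 in the f/f libraries and 164, 243 and 34.8 in the KO libraries, where the third comes from the short list. On the shared standing by −log10 q, which sets the libraries on the same scale, the region was at 32.9, 31.0 and 42.0 in f/f and at 70.6, 75.5 and 71.8 in KO, so that every KO library stood far above every f/f library. The means were 35.3 ± 5.87 and 72.6 ± 2.55 (SD, n = 3 each), a difference of 37.3 ± 4.62 percentile points (SE; limma, adjusted p = 0.00113 over all shared regions). Without KO replicate 3, which also changes the set of shared regions, the difference was 25.9 points (limma, adjusted p = 0.00147). By fold, the same region stood at 21.1, 19 and 24.4 in f/f and at 53.2, 60.4 and 67.2 in KO, a difference of 38.8 ± 6.88 points (limma, adjusted p = 0.0483). That call rests on all 6 libraries, since with any library but KO replicate 3 left out the adjusted p was 0.113 to 0.190 and no region of the series passed (3822 to 5622 regions had an unadjusted p under 0.05), while without KO replicate 3 it was 0.0283.

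Another region inside Tcf7 also stood higher in the KO libraries. It lies 7688 bp downstream of the nearer start (chr11:52272243-52274907), with a shared standing of 8.5, 19.4 and 18.7 in f/f and of 35.4, 36.5 and 39.4 in KO. The groups did not overlap, and the difference was 21.6 ± 4.2 points by −log10 q (limma, adjusted p = 0.00751). By fold it was 8.12 ± 4.39 points and did not pass (limma, adjusted p = 0.335). By −log10 q, the remaining regions of the gene did not move with the start and this region. At −14.3 kb from the outer start, and in the gene body at 21.7 and 29.8 kb from it, the differences were −11.1 ± 5.51, −9.77 ± 4.49 and −2.46 ± 3.13 points, and none passed the test. Beyond the 3′ end, a region at the start of Skp1, a subunit of SCF ubiquitin ligases, fell by 14.4 points (chr11:52231603-52232697; SE 2.76; limma, adjusted p = 0.00692). Its shared standing was 90.8, 95 and 88.4 in f/f and 76.8, 81.8 and 72.2 in KO, so it stayed among the strongest peaks in both groups. Without KO replicate 3 it fell by 7.68 points. By fold with all 6 libraries it differed by −5.98 ± 5.17 points and did not pass (limma, adjusted p = 0.525). By −log10 q, the 51 other shared regions within 1 Mb of the Tcf7 window had a median difference of −4.04 points, with 5 called higher and 13 called lower. Of all shared regions, 12.6% were called higher and 11.3% lower. By fold the median difference of the 51 regions had the opposite sign, at 4.77 points.

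**Figure D1:**
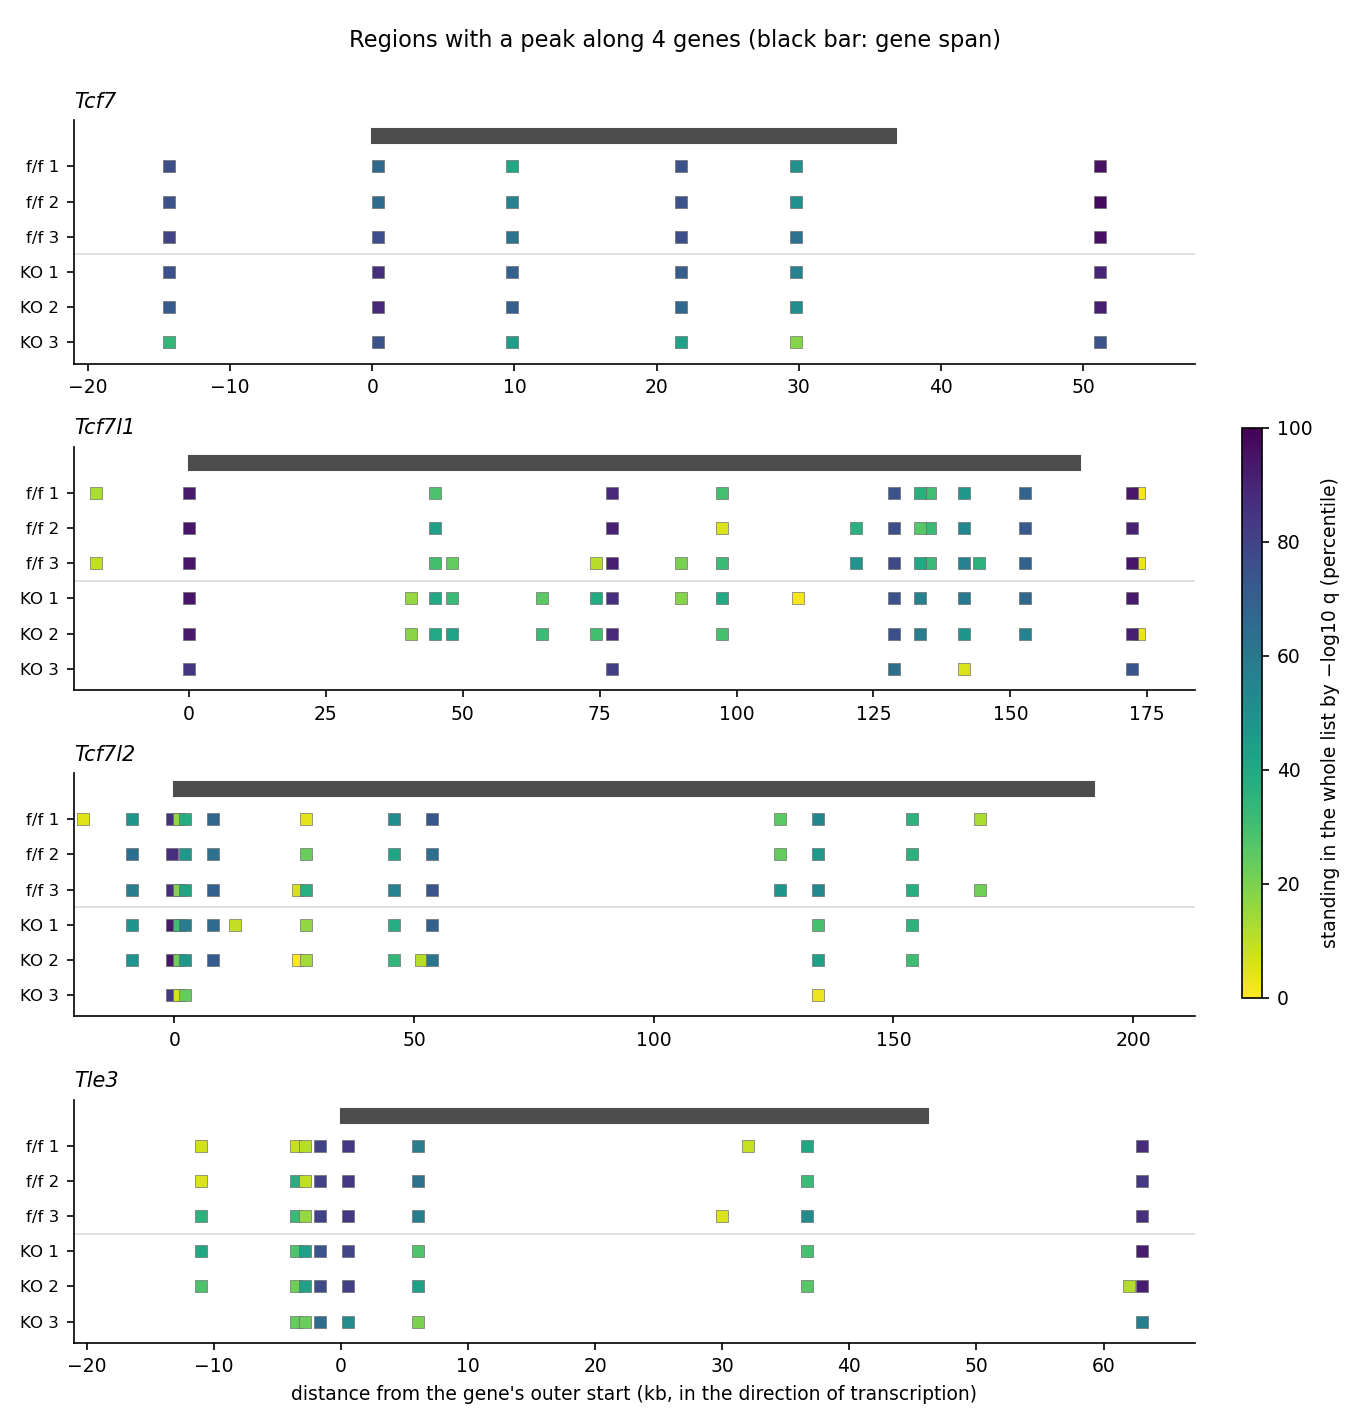
Positions of the regions with a peak along Tcf7, Tcf7l1, Tcf7l2 and Tle3, with 1 row per library and the distance from the outer start of the gene in kb on the horizontal axis; the colour gives the whole-list standing by −log10 q and the black bar the span of the gene. All 6 Tcf7 regions were present in all 6 libraries, whereas KO replicate 3 had a peak in 5 of 20 regions at Tcf7l1 and in 4 of 16 at Tcf7l2.

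Lef1, the partner of Tcf7 in many tissues, was far poorer in open regions, with 5 over a span of 114 kb (chr3:131110297-131224357, + strand). The broad region over its upstream starts (chr3:131110140-131112687, 2548 bp) was the single Lef1 region with a peak in all 6 libraries. Its shared standing was 34.1, 43.5 and 42.6 in f/f and 21.1, 32.7 and 35.8 in KO. KO replicate 3 lay within the range of the f/f libraries, and the difference of −10.2 ± 5.24 points did not pass (limma, adjusted p = 0.188; 95% interval −22.1 to 1.64). A region in the gene body at 29.1 kb (chr3:131138859-131139925) and a region 13.4 kb beyond the 3′ end, inside the span of Hadh, were present in every library but KO replicate 3. Across a gap of 0.094 kb from the latter region, KO replicate 3 alone had a weak peak (chr3:131238446-131238680). That peak stood at 2.2 in the whole list and was not joined to the region. The body region had a whole-list standing of 63.2, 64.4 and 75.1 in f/f and of 62.1 and 61.1 in KO replicates 1 and 2. Near the internal start printed above, the nearest region lay at −8203 bp and had a weak peak in f/f replicates 1 and 3 alone, at standings of 0.9 and 2.5.

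Tcf7l1 encodes TCF3, the family member that acts mainly as a repressor. Its gene (chr6:72626371-72789045, − strand) had the most regions, 20, of which 16 lay inside the span and 5 were shared by all libraries. The start region (chr6:72788098-72789847) stood at 85.1, 88.2 and 86.0 in f/f and at 88.3, 86.0 and 83.1 in KO. The groups overlapped, and the difference was −0.65 ± 1.88 points (limma, adjusted p = 0.832; 95% interval −4.91 to 3.62). A region 77.3 kb into the gene (chr6:72711090-72712315) was nearly as strong, with a difference of −3.15 ± 2.93 points, and the region at the start of Tgoln1 beyond the 3′ end had a difference of −5.46 ± 3.72 points. None of the 5 shared regions of Tcf7l1 passed the test, and 0 had an unadjusted p under 0.05 (limma).

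Several weaker regions inside Tcf7l1 had peaks in the libraries of 1 group. A region 135.4 kb into the gene (chr6:72653307-72653890) had a peak in the 3 f/f libraries, at whole-list standings of 30.7, 32.1 and 32.4, and in no KO library. Its neighbour, across a gap of 1.27 kb toward the start (chr6:72655162-72655985), which lies at a listed start of the uncharacterized gene Gm31391, ranked the other way. It stood at 36.4, 26.4 and 40.2 in f/f and at 56.9 and 57.9 in KO replicates 1 and 2, with no peak in KO replicate 3. Tested without KO replicate 3, it was higher by 27.9 ± 4.86 points by −log10 q (limma, adjusted p = 0.00437) and by 17.7 points by fold (limma, adjusted p = 0.0178). At 64.4 and 40.5 kb into the gene (chr6:72724466-72724832 and chr6:72748432-72748713), peaks were present in KO replicates 1 and 2 and absent from all f/f libraries and from KO replicate 3. The former stood at 25.5 and 32.0 and the latter at 15.9 and 17.6, in the lower part of both lists.

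Tcf7l2 is the main TCF of the intestine. Its gene (chr19:55741797-55933659, + strand) had 16 regions, 3 of them shared by all libraries, and 6 more were present in every library but KO replicate 3. Its start region (chr19:55740722-55741960) was the other start that rose. The shared standing by −log10 q was 68.9, 72 and 67.0 in f/f and 85.1, 87.8 and 81.8 in KO, with no overlap. The difference was 15.6 ± 2.65 points (limma, adjusted p = 0.00426), and 10.9 ± 1.62 points without KO replicate 3. Its fold over background was 8.03, 7.0 and 7.01 in f/f and 10.5, 11.3 and 7.94 in KO, where KO replicate 3 fell within the range of the f/f libraries. On the shared standing by fold it stood at 30.3, 36.8 and 23.3 in f/f and at 45.9, 51.2 and 70.9 in KO, a difference of 25.9 ± 8.80 points that did not pass (limma, adjusted p = 0.167).

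Deeper in Tcf7l2 the differences ran the other way. A region 134.3 kb into the gene (chr19:55875222-55877068) had a shared standing of 17.7, 11 and 10.5 in f/f and of 1.9, 5.9 and 1.3 in KO. The groups did not overlap, and it fell by 9.98 points (SE 2.94; limma, adjusted p = 0.0382), but the adjusted p was 0.0541 to 0.144 when any library was left out. By fold it differed by −13.9 ± 3.56 points and did not pass (limma, adjusted p = 0.0945). A region 6.82 kb before it (chr19:55867772-55868403) had a peak in the f/f libraries alone, at whole-list standings of 25.4, 23.7 and 47.3. The internal Tcf7l2 start had no peak over its window in any library. A region 104 bp downstream of it (chr19:55895425-55895956) was present in every library but KO replicate 3, at whole-list standings of 35.7, 36.0 and 37.9 in f/f and of 35.6 and 30.8 in KO. The 42 other shared regions within 1 Mb of the Tcf7l2 window had a median difference of −5.32 points. Of these, 6 were called higher and 5 lower, against 12.6% and 11.3% of all shared regions.

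Among the corepressors, the start regions of Tle1 and Tle4 were strong and nearly the same in all libraries. Tle4 (chr19:14448072-14598183, − strand) had 3 regions, and its start region (chr19:14597129-14598929) stood at 98.7, 98.2 and 99.0 in f/f and at 97.6, 97.9 and 97.9 in KO in the whole lists. On the shared scale the difference was −0.94 ± 1.08 points (limma, adjusted p = 0.566; 95% interval −3.39 to 1.51). The summit lay at −139 bp from the outer start in each of the 6 libraries. The other Tle4 regions were weak, with peaks in f/f replicate 3 alone and in f/f replicates 2 and 3.

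Tle1 (chr4:72109945-72200989, − strand) had 2 regions. Its start region (chr4:72198940-72201778), which also covers a start of the neighbouring transcript C630043F03Rik, had a shared standing of 85.9, 90.3 and 90.0 in f/f and of 87.2, 87.6 and 88.2 in KO. The difference was −1.08 ± 1.64 points (limma, adjusted p = 0.667; 95% interval −4.79 to 2.62). By fold the region stood at 42.2, 51.9 and 39.1 in f/f and at 50.5, 46.7 and 80.1 in KO, with KO replicate 3 apart from the rest. At Tle4, KO replicate 3 was likewise the highest by fold, at 97.6 against 69.7 to 81.5 in the other libraries.

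Tle3 (chr9:61372326-61418497, + strand), a corepressor also known from fat cells, had 11 regions, of which 6 were shared by all libraries. Its start region (chr9:61372150-61373701) stood at 65.4, 66.3 and 59.1 in f/f and at 57.3, 59.6 and 48.2 in KO, with overlap and a difference of −8.55 ± 4.58 points (limma, adjusted p = 0.205; 95% interval −18.9 to 1.81). By −log10 q, no Tle3 region passed with all 6 libraries (2 had an unadjusted p under 0.05, limma), but 3 passed without KO replicate 3. A small region at −2598 bp from the start (chr9:61369324-61369768) then stood at 2.7, 1.9 and 1.3 in f/f and at 26.5 and 24.9 in KO, a rise of 23.7 ± 3.45 points (limma, adjusted p = 0.00197). In the opposite direction, a region 6.1 kb into the gene (chr9:61377760-61379118) stood at 43.9, 51.2 and 33.9 in f/f and at 11.4 and 24.9 in KO and fell by 24.9 points (SE 6.67; limma, adjusted p = 0.0262). The third, 16.4 kb beyond the 3′ end (chr9:61434883-61435829), rose by 9.85 ± 1.99 points (limma, adjusted p = 0.00827). With KO replicate 3 in the fit, their differences were 9.51, −14.1 and 5.48 points, at adjusted p of 0.068, 0.0531 and 0.631 (limma). By fold none of the 3 passed in either fit. Without KO replicate 3 the differences by fold were 1.61, −17.5 and 1.51 points (limma, adjusted p = 0.57, 0.204 and 0.784). With all 6 libraries they were 1.07, −9.03 and −8.76 points (limma, adjusted p = 0.655, 0.332 and 0.575).

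Tle2 (chr10:81574739-81592581, + strand) lies between the relatives Tle5 and Tle6, so most of its 8 regions belong to the surroundings of more than 1 gene. The region at its own start (chr10:81575243-81575696) was the weakest start of the 8 genes, with a whole-list standing of 13.5 and 25.5 in f/f replicates 2 and 3 and no peak in the other 4 libraries. The other 7 regions had a peak in all 6 libraries. The strongest Tle2 region lay beyond the 3′ end (chr10:81604982-81606770), at whole-list standings of 91.1, 91.7 and 93.5 in f/f and of 95, 93.0 and 90.6 in KO, with a difference of 5.57 ± 1.93 points on the shared scale (limma, adjusted p = 0.0663). A region at a start of Tle6 (chr10:81600723-81601248) fell by 16.4 points (SE 3.95; limma, adjusted p = 0.0179), from a shared standing of 32.4, 25.9 and 19.2 in f/f to 11.1, 10.5 and 6.6 in KO. Without f/f replicate 2, KO replicate 2 or KO replicate 3 its adjusted p was 0.0537, 0.0502 and 0.0985. By fold it differed by −6.02 ± 1.99 points and did not pass (limma, adjusted p = 0.159). Upstream, a region inside the span of Tle5 (chr10:81559157-81561318) stood at 4.0, 2.2 and 3.8 in f/f and at 14.0, 7.6 and 21.5 in KO. The difference of 11 ± 3.58 points did not pass (limma, adjusted p = 0.0532). Without KO replicate 3 it passed, at 22.2 ± 4.63 points by −log10 q (limma, adjusted p = 0.00956). By fold without KO replicate 3 the difference was 7.34 points and did not pass (limma, adjusted p = 0.0956).

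**Figure D2:**
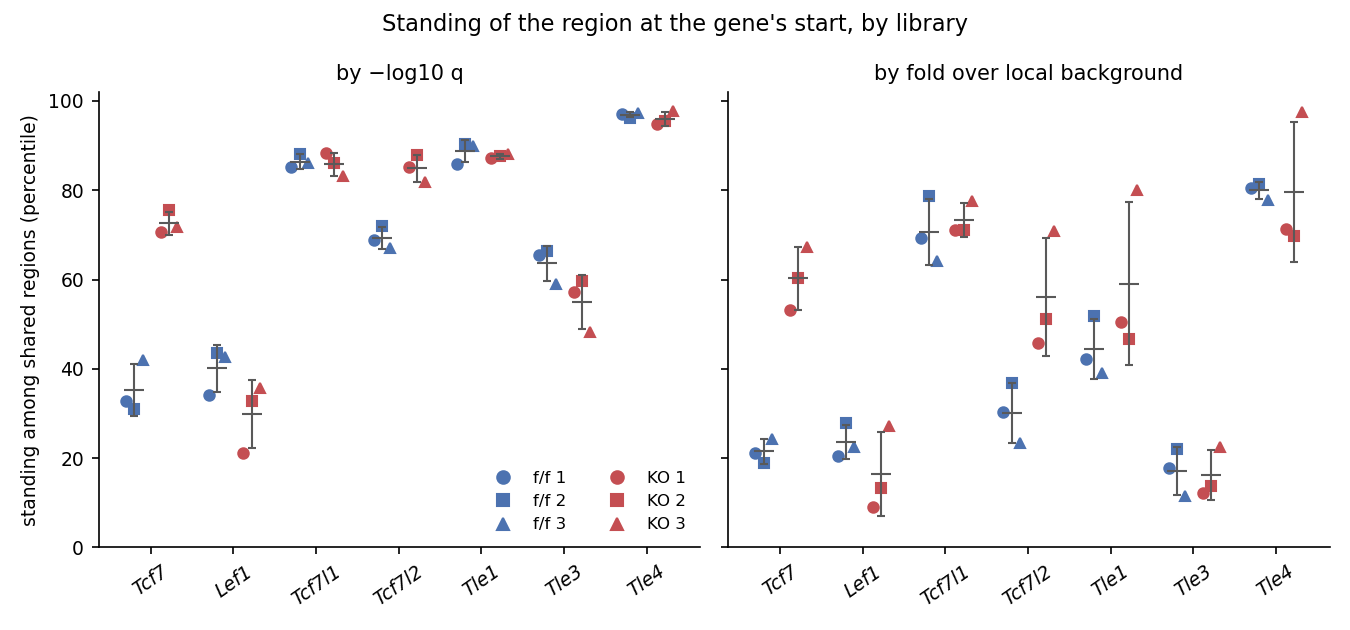
Shared standing of the region at the start of 7 genes in each library, by −log10 q on the left and by fold over the local background on the right, in percentiles; horizontal marks and bars give the mean and SD of 3 libraries. By −log10 q the 3 KO libraries lay above the 3 f/f libraries at Tcf7 and Tcf7l2, and the groups overlapped at the other 5 genes. How often the groups lie apart over all start regions was not counted. Limma called 12.6% of all shared regions higher in KO, which are not limited to starts. Tle2 is not drawn since its start had a peak in 2 libraries.

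Ordered by the mean shared standing of the start region in f/f, the genes ran Tle4 (96.9 ± 0.60), Tle1 (88.7 ± 2.44), Tcf7l1 (86.4 ± 1.61), Tcf7l2 (69.3 ± 2.5), Tle3 (63.6 ± 3.93), Lef1 (40.1 ± 5.19) and Tcf7 (35.3 ± 5.87; SD, n = 3 each). The ranges of Tle1 and Tcf7l1 overlapped, as did those of Lef1 and Tcf7. In KO, Tcf7 passed Tle3 and Lef1 in this order, with means of 72.6 ± 2.55, 55.0 ± 6.02 and 29.9 ± 7.71, and Tcf7l2 (84.9 ± 3.01) came within the range of Tcf7l1 (85.8 ± 2.62).

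Over all 30 shared regions, limma called 6 by −log10 q (20%), against 23.9% of the 29849 shared regions of the series. Of these, 3 were higher in KO (background 12.6%) and 3 were lower (background 11.3%), so the share of changed regions at these genes was near that of the genome. The median difference of the 30 regions was −0.79 points, against −0.24 points over all shared regions. By fold, 1 of 30 was called (3.33%), the Tcf7 start, against 1.38% in the series (0.754% higher and 0.63% lower). Without KO replicate 3, 44 regions could be tested and 9 were called by −log10 q (20.5%), 7 higher and 2 lower, against backgrounds of 22.5% in either direction, 11.6% higher and 10.9% lower. By fold, 2 were called without it, both higher, against 6.33% in either direction, 3.4% higher and 2.93% lower.

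**Figure D3:**
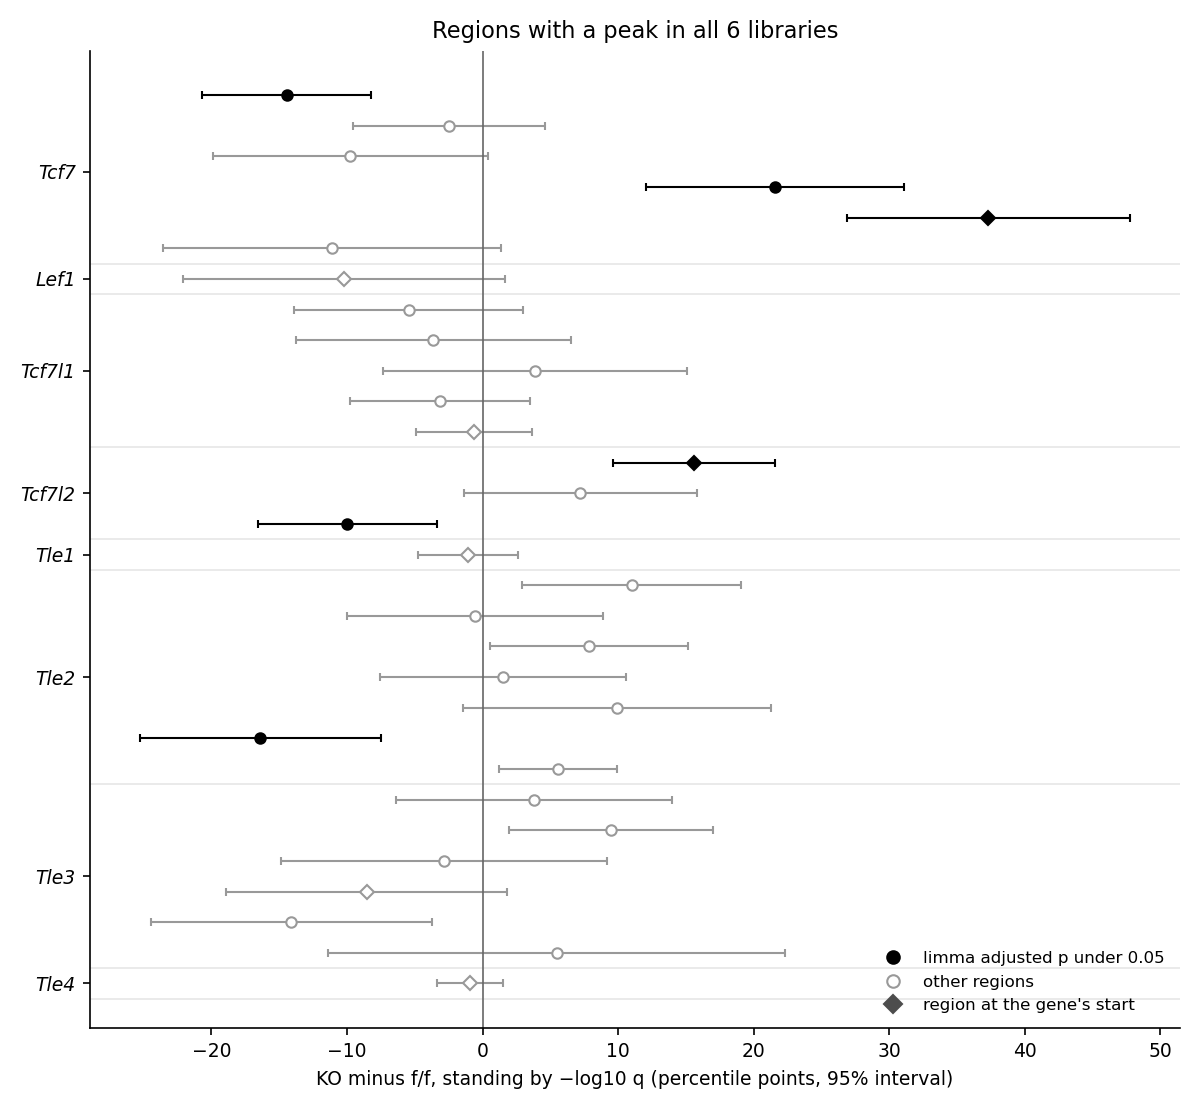
Difference in shared standing by −log10 q, KO minus f/f, in percentile points with its 95% interval, for the 30 regions at the 8 genes that all 6 libraries shared, in order of position within each gene; filled marks passed limma at an adjusted p under 0.05 and diamonds are the regions at gene starts. The start of Tcf7 stands apart at 37.3 points, and the called regions lie at Tcf7, Tcf7l2 and Tle2.

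Presence and absence of peaks showed little difference between the groups. Of the 71 regions, 2 were found in all f/f libraries and no KO library, those of Tcf7l1 and Tcf7l2 given above, against a background of 3.75% of all regions. No region was found in all KO libraries alone, against 0.179% of all regions. Without KO replicate 3 the counts were 2 and 2, against 3.82% and 2.93%, and the pair found in KO alone was the weak pair inside Tcf7l1.

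The number of regions with a peak per gene overlapped between the groups at all 8 genes. At Tcf7l1 it was 12, 11 and 17 in f/f and 15, 14 and 5 in KO, and at Tcf7l2 13, 10 and 13 in f/f and 11, 12 and 4 in KO. KO replicate 3 was the lowest at both genes. The exact permutation test over the 20 assignments of the libraries, two-sided, gave p = 0.8 for Tcf7l1 and p = 0.5 for Tcf7l2, where the smallest p that it can give is 0.1. Tle3 had 9, 8 and 9 regions in f/f and 8, 9 and 6 in KO (exact permutation p = 0.7), and Lef1 had 4, 3 and 4 in f/f and 3, 3 and 2 in KO (exact permutation p = 0.3). At Tle2 the numbers were 7, 8 and 8 in f/f and 7 in each KO library (exact permutation p = 0.4), and at Tle4 they were 1, 2 and 3 in f/f and 1 in each KO library (exact permutation p = 0.4). Tcf7, with 6 regions in every library, and Tle1, with 1, 1 and 2 in f/f and 1 in each KO library, gave p = 1.0 in the exact permutation test. None of the 8 genes had more regions in every KO library than in any f/f library, or fewer, against 0.121% and 9.94% of the 18160 protein-coding genes with a region.

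**Figure D4:**
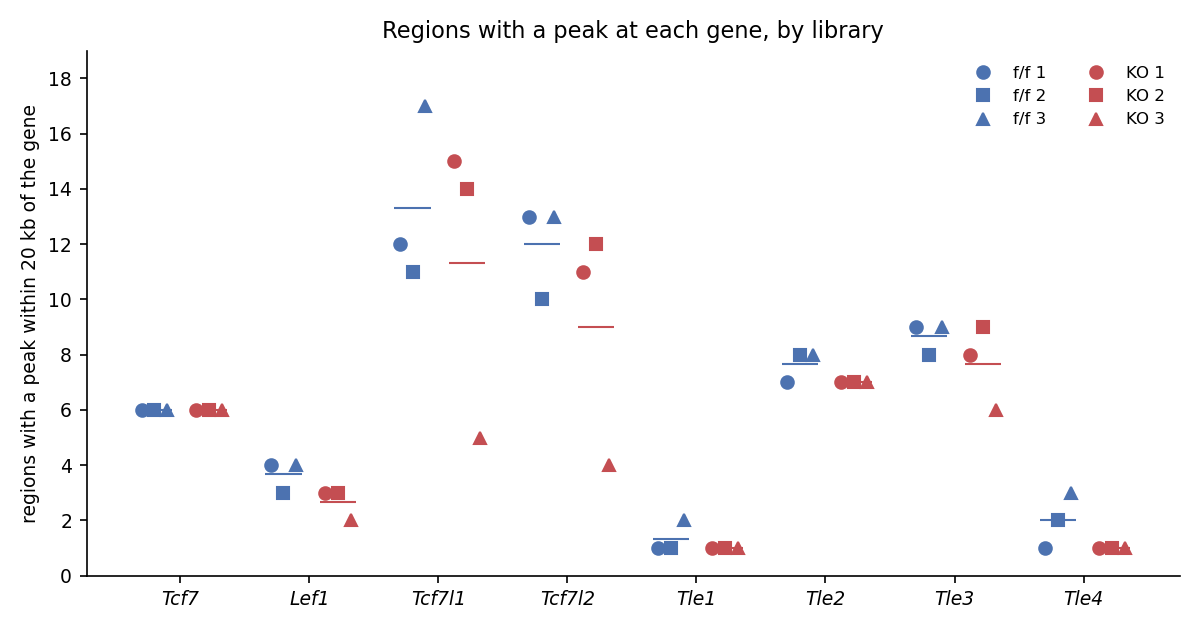
Number of regions with a peak within 20 kb of each gene in each library, with the mean of 3 libraries as a line. The groups overlap at all 8 genes, and KO replicate 3 is the lowest library at Lef1, Tcf7l1, Tcf7l2 and Tle3.

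The nuclear partners of these factors were examined in the same way. Of 15 genes, 11 had a start in the RefSeq windows and 10 had a peak there in all 6 libraries. The start of Ctnnb1, which encodes β-catenin itself, differed by −1.40 ± 2.84 points (limma, adjusted p = 0.755). For each gene 1 region at a start was taken, the strongest of those found in the most libraries. At 3 of these 10 partners it passed the test, each time higher in KO. The background was 12.6% of all shared regions, which are not limited to starts. The 3 partners were Hipk2, a nuclear kinase (39.0 ± 4.77 points, adjusted p = 0.00109), Ctbp1, a corepressor (24.8 ± 2.37 points, adjusted p = 0.000424), and Bcl9, which links β-catenin to the Pygo proteins (24.2 ± 5.02 points, adjusted p = 0.00976; limma). By fold none of these 3 passed (limma, adjusted p = 0.056, 0.0855 and 0.187). The regions taken at the starts of Pygo1, Pygo2, Ctnnbip1, Cby1, Nlk and Tle6 did not pass. The region at another start of Tle6, given above with Tle2, was called lower. Counting all 61 shared regions within 20 kb of the 15 genes, 7 were higher and 6 lower, near the backgrounds of 12.6% and 11.3%, with a median of −0.43 points.

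By −log10 q, established targets of TCF/LEF changed in both directions. Of 12 genes, 7 had a start in the RefSeq windows and 4 had a peak there in all 6 libraries. The start of Axin2, the standard readout of the pathway, differed by −1.64 ± 2.5 points (limma, adjusted p = 0.669), and that of Tnfrsf19 by 3.75 ± 6.39 points. The start of Lgr6, an R-spondin receptor, rose by 16.5 ± 5.12 points (limma, adjusted p = 0.0458), and that of Rnf43, a ubiquitin ligase that removes Frizzled receptors, fell by 7.54 points (SE 1.56; limma, adjusted p = 0.00954). By fold neither passed, with differences of 15.9 points at Lgr6 and 4.69 points at Rnf43 (limma, adjusted p = 0.294 and 0.518). Among their 35 shared regions, 5 were higher and 5 lower, near the backgrounds of 12.6% and 11.3%, with a median of −1.32 points. The bHLH gene Tcf4 had 18 regions, of which 8 were shared and 1 was higher (background 12.6%).

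The identity of the cells and the targeted gene were checked in the same lists. Of the 10 osteoblast markers, 6 had a start in the RefSeq windows, and those of Runx2, Col1a2 and Spp1 had a peak in all 6 libraries, Alpl in 5 libraries, and Bglap and Ibsp in none. The starts of both mesenchymal markers, Twist1 and Prrx1, had a peak in all 6. Of the 9 markers of blood, endothelium, epithelium, neurons and muscle with a start in the RefSeq windows, only Tek, an endothelial receptor, had a peak there in any library (3 libraries). Within 20 kb, Tek had 7, 8 and 7 regions in f/f and 1 in each KO library, while Cdh5 had 4, 3 and 5 in f/f and 3, 3 and 1 in KO, and Pecam1 had 6, 5 and 6 in f/f and 6, 7 and 3 in KO. What part the regions at Tek have in the results at the 8 genes was not tested. Peaks do not show a deleted exon, and Fam20c, which encodes the secretory pathway kinase, had a peak at its start in all 6 libraries. The start differed by 8.59 ± 1.93 points by −log10 q (limma, adjusted p = 0.0134), and by fold it did not pass (15.1 points; limma, adjusted p = 0.433). Within 20 kb, Fam20c had 3, 2 and 3 regions with a peak in f/f and 4, 1 and 1 in KO. Of its 6 regions, 1 was found in all f/f libraries and no KO library, against 3.75% of all regions.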

How the data were processed

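ATAC-seq peak lists of 3 f/f libraries and 3 KO libraries were used, grouped by the sample labels. Reads had been trimmed with Trimmomatic and aligned to mm10 with BWA, and peaks had been called per library with MACS2 2.1.2 (q-value below 0.05). How duplicates and blacklisted regions were treated is not given in the sources used here. For each peak the authors deposited the fold over the local background (a ratio), the −log10 p, the −log10 q and a score, which is derived from the −log10 q. Each of these moves with the depth of its own library, so only ranks within a list were compared, and a library with more reads places the threshold lower. The numbers of reads in peaks, which the authors tested, were not used here.

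Autosomal, X and Y peaks that shared 1 bp were merged. Standings of the regions shared by all 6 libraries were compared with limma 3.58.1 (R 4.3.3, trend on the mean) and Benjamini-Hochberg adjustment over all shared regions at 0.05, and numbers of regions by an exact permutation test. Procedures were tested on simulated data. RefSeq gave gene spans and starts but no exons, so places inside a gene were not divided further. Alternatives were each library left out in turn, a −log10 q of at least 5, equal list lengths, an overlap of 50%, spans extended by 3 or 50 kb, a peak in 2 of 3 libraries, numbers per 10000 peaks, normal scores, array quality weights and a replicate block. The genes, lists and tests were chosen with earlier results of these data known. Regions were named by rule: those at each gene's start, the strongest of each gene, those found in 1 group only and those called. Python 3.11.15, pandas 2.3.3 and scipy 1.17.1 were used.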

Additional observations from a re-analysis of the deposited data

How the results depend on the processing

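The rise of the Tcf7 start by −log10 q kept its direction and its call in all 12 alternatives. So did the rise of the Tcf7l2 start and, in the 11 that kept the region, that of the inner Tcf7 region. The fall of the region at the Skp1 start also kept both in all 12. The fall of the called Tle6 region lost its call in 4 alternatives, and that of the region deep in Tcf7l2 in 7. By fold, no region was higher in KO with the replicate block, with peaks of a −log10 q of 5 or more or with equal list lengths. No region of the series passed by fold in those settings. The number was 2 with normal scores, where 532 of all 29849 shared regions were higher. With a library left out it was 0 to 2, where 0% to 6.33% of all shared regions were called in either direction. Array quality weights gave 3 lower, where 1865 of all 29849 were lower. By −log10 q, 5 were higher with array quality weights, where 5716 of all 29849 shared regions were, and 5 with normal scores, where 4066 were. With equal list lengths 1 was lower, where 2570 of all 24018 shared regions were. With a library left out 3 to 7 were higher and 1 to 3 lower. In those settings 13.5% to 22.5% of all shared regions were called in either direction. The f/f-only regions numbered 0 with equal list lengths, 8 when a peak in 2 of 3 libraries sufficed and 2 to 5 with a library left out, and the KO-only regions 2 and 0 to 2 under the last 2 settings. Genes with fewer regions in every KO library numbered 1 with spans extended by 50 kb and 0 to 2 with a library left out. For these counts, shares over the series are given above only for all 6 libraries and, for regions, without KO replicate 3. The counts under the other settings therefore have no background beside them. The difference in the number of regions reversed at Tcf7l1 (−3.83 to 1.17 with a library left out, positive without KO replicate 3, 0.667 with equal list lengths, 0.0415 per 10000 peaks), Tle1 (0.0104 per 10000 peaks), Tle2 (−1.0 to 0.333 with a library left out, positive without KO replicate 1, 0.667 with equal list lengths, 0.287 per 10000 peaks) and Tle3 (1.33 with peaks of a −log10 q of 5 or more, 0.193 per 10000 peaks). The cause was not tested. Same-numbered libraries did not deviate together (r = 0.0678, −0.105 and −0.124). The labels name no batch, so whether they were handled together is not known. With the replicate block, 3 regions were higher and 2 lower by −log10 q, where 3215 and 2833 of all 29849 shared regions were. The region deep in Tcf7l2 then had an adjusted p of 0.065 (limma).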
